A study of Macaca fascicularis with 86 samples.

Results

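A set of 10 genes of the endothelium, the cell layer that lines blood vessels, were followed through gastrulating crab-eating macaque embryos. They are KDR, TEK, TIE1, CDH5, PECAM1, CD34, CLDN5, FLI1, ERG and EGFL7, taken by symbol as 10 of the 17023 genes of the deposited table. All 10 passed the filter on low values (at least 1 TPM, a length-scaled share of a region's transcripts, in at least 10 regions) that left 15216 genes for testing. The values come from Geo-seq, in which small regions are cut out of frozen embryo sections by laser and sequenced as polyA RNA. The study took 5 to 50 cells per region and covered 86 regions of 17 sections. Embryo 1 of E20 (embryonic day 20) gave 36 regions in 7 sections, embryo 2 of E18 gave 35 regions in 6 sections, and embryo 1 of E18 gave 15 regions in 4 sections. The labels name no treatment and no genotype, and they give each region only by stage, embryo, section and sector. What a section or sector number stands for in the anatomy is not given in the sources used here.

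In primate embryos at this age the first vessels form in the extraembryonic mesoderm of the yolk sac and chorion, before vessels form in the embryo itself. VEGF acting on KDR sets mesoderm cells on the endothelial path, ETS transcription factors such as FLI1 and ERG switch on the endothelial genes, and angiopoietins acting through TEK and TIE1 steady the new vessels. CDH5, PECAM1 and CLDN5 then join the cells to each other. Several of these genes are used outside the endothelium too: PECAM1 and CD34 are also carried by blood cells, and in the mouse KDR marks early mesoderm and PECAM1 is also made by pluripotent cells.

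TPM is scaled by gene length, so levels can be set side by side between genes, but it keeps no read counts and the depth of a region is unknown. Between 6194 and 10950 genes reached 1 TPM in E20 regions, 11091 to 13958 in E18 embryo 2 and 7815 to 11516 in E18 embryo 1. HPRT1, a gene of nearly all cells, was listed at 0 in 6 regions, so a 0 is given as listed and not as absence. Each region mixes cell types, and fewer endothelial cells and less RNA per cell cannot be told apart. E20 sections 1 to 5 are described apart from sections 6 and 7, a division taken from earlier results on endoderm genes of these data. The mean level of 17 yolk sac endoderm genes, on the log2(TPM + 1) scale, lay between 1.94 and 10.2 in the earlier block and between 0.358 and 1.16 in the later one.

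Most regions of E20 sections 1 to 5 carried nearly the whole set of endothelial genes. All 10 reached 1 TPM in 13 of their 28 regions, and the median region had 9. In E20 sections 6 and 7 the median region had 5 of the 10, in E18 embryo 2 it had 8, and in E18 embryo 1 it had 5. All 10 were at 1 TPM or more in 1 of 8 regions of E20 sections 6 and 7, in 7 of 35 of E18 embryo 2 and in 2 of 15 of E18 embryo 1. The regions of E18 embryo 2 with the full set were spread over 5 of its 6 sections, whereas section 5 had at most 9 genes in a region.

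**Figure D1:**
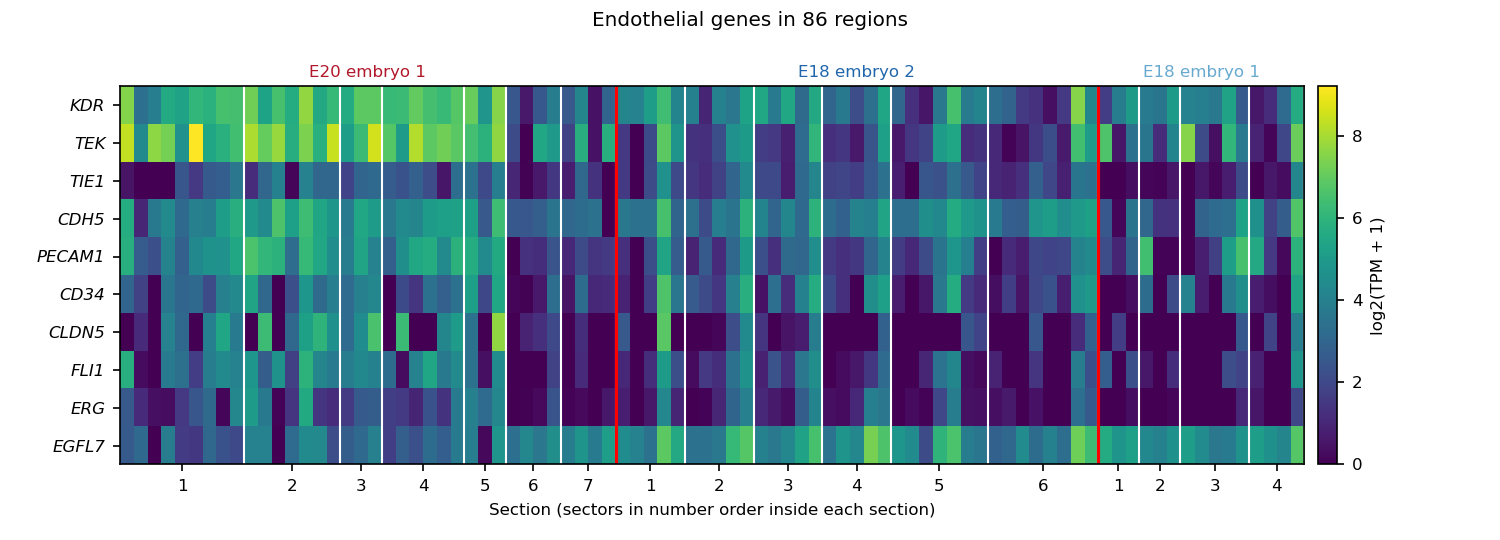
Level of each of the 10 endothelial genes (rows) in each of the 86 regions (columns), as log2(TPM + 1) on the colour scale. Red lines part the embryos and white lines part the sections; sectors run in number order inside a section. E20 sections 1 to 5 are bright for KDR and TEK in every region, while E18 embryo 2 shows bright columns in a few sectors of each section.

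Among the receptors, KDR, the main signalling receptor of VEGF, was above 9 TPM in every region of E20 sections 1 to 5. It had a lowest, median and highest level of 9.23, 75.4 and 210 TPM there, and 0.35, 4.89 and 17.2 TPM in E20 sections 6 and 7. In E18 embryo 2 the same 3 values were 0.312, 12.4 and 186 TPM, and in E18 embryo 1 they were 0.499, 12.7 and 50 TPM. The E18 medians lay between those of the E20 blocks, and all of these ranges overlapped.

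TEK, the angiopoietin receptor also called TIE2, had the highest median of the 10 genes in E20 sections 1 to 5. Its lowest, median and highest levels were 19.5, 115 and 591 TPM there, and 0.0142, 17.1 and 55.7 TPM in E20 sections 6 and 7. They were 0, 1.91 and 116 TPM in E18 embryo 2, and 0.108, 9.84 and 185 TPM in E18 embryo 1. The ranges overlapped, although the median of E18 embryo 2 was below the lowest region of E20 sections 1 to 5. TIE1, the partner of TEK, was a low gene throughout, with medians of 5.30 TPM in E20 sections 1 to 5, 0.808 TPM in E20 sections 6 and 7, 3.06 TPM in E18 embryo 2 and 0.223 TPM in E18 embryo 1. In E18 embryo 1 it reached 1 TPM in 2 of 15 regions, section 3 sector 5 at 3.30 TPM and section 4 sector 4 at 17.7 TPM.

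Among the junction and surface genes, CDH5 (VE-cadherin, the adherens junction protein of endothelium) was the most widespread. It reached 1 TPM in 34 of 36 E20 regions, 35 of 35 regions of E18 embryo 2 and 13 of 15 regions of E18 embryo 1. Its medians were 31.03 TPM in E20 sections 1 to 5, 6.57 TPM in E20 sections 6 and 7, 14.7 TPM in E18 embryo 2 and 6.63 TPM in E18 embryo 1. The highest levels of CDH5 were 97.3, 10.8, 91.7 and 104 TPM in the same order. PECAM1, an adhesion molecule of endothelial junctions, had a lowest, median and highest level of 3.72, 25.1 and 95.1 TPM in E20 sections 1 to 5, and of 0, 1.58 and 4.23 TPM in E20 sections 6 and 7. Its median was 3.35 TPM in E18 embryo 2, with a highest region of 40.8 TPM, and 2.33 TPM in E18 embryo 1, with a highest region of 92.0 TPM. Both E18 embryos thus overlapped widely with E20, and single regions of E18 embryo 1 were as high as any E20 region but 1.

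CD34, a sialomucin of endothelial and blood progenitor surfaces, and CLDN5, the tight junction claudin of endothelium, were patchier. The median of CD34 was 7.97 TPM in E20 sections 1 to 5, 0.826 TPM in E20 sections 6 and 7, 2.88 TPM in E18 embryo 2 and 0.683 TPM in E18 embryo 1. Its highest levels were 43.1, 9.04, 99.8 and 40.3 TPM in the same order. CLDN5 was listed at 0 in 13 of 36 E20 regions, 20 of 35 regions of E18 embryo 2 and 11 of 15 regions of E18 embryo 1. Where it was found it could be high, up to 205 TPM in E20 section 5 sector 3 and 115 TPM in E18 embryo 2 section 1 sector 4.

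The ETS factors FLI1 and ERG had low medians in E18 and in E20 sections 6 and 7, although single E18 regions were higher. FLI1 had a median of 13.9 TPM and a highest level of 61 TPM in E20 sections 1 to 5, and it was listed at 0 in 6 of the 8 regions of E20 sections 6 and 7. Its median was 1.26 TPM in E18 embryo 2, with a highest region of 31.2 TPM. In E18 embryo 1 its median was 0.501 TPM, with a highest region of 26.3 TPM. ERG had medians of 3.09 TPM in E20 sections 1 to 5, 0.114 TPM in E20 sections 6 and 7, 0.600 TPM in E18 embryo 2 and 0 in E18 embryo 1, where 10 of 15 regions were listed at 0. Its highest levels were 47.2, 4.29, 18.3 and 2.87 TPM in the same order.

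EGFL7, a protein that endothelial cells secrete into their matrix, had its lowest median in E20 sections 1 to 5, where every other gene of the set had its highest. Its medians were 6.77 TPM in E20 sections 1 to 5, 16.01 TPM in E20 sections 6 and 7, 18.1 TPM in E18 embryo 2 and 23.8 TPM in E18 embryo 1. It was at 1 TPM or more in every E18 region, with lowest levels of 3.31 TPM in E18 embryo 2 and 11.5 TPM in E18 embryo 1, and it was listed at 0 in 2 E20 regions. In E18 embryo 2 it had the highest median of the 10 genes, ahead of CDH5 and KDR, and its highest region, section 4 sector 4, held 161 TPM.

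The stage comparison set the mean of the E20 embryo against the means of both E18 embryos on the log2(TPM + 1) scale. Its SE and p rest on a spread shared over all genes and taken as exactly known (infinite prior degrees of freedom). No spread between E20 embryos enters them, so a small p is not evidence from replicate E20 embryos. TEK and KDR were higher at E20, EGFL7 was lower, and the other 7 genes did not pass the test. TEK averaged 6.03 in the E20 embryo, and 2.53 in E18 embryo 2 and 3.31 in E18 embryo 1. The difference was 3.11 ± 0.49 log2 units (SE), with a limma adjusted p of 4.57e-08. KDR averaged 5.35 in the E20 embryo, and 3.69 in E18 embryo 2 and 3.55 in E18 embryo 1, a difference of 1.73 ± 0.47 (adjusted p = 0.00471). EGFL7 averaged 3.09 in the E20 embryo, and 4.69 in E18 embryo 2 and 4.74 in E18 embryo 1, a difference of -1.63 ± 0.47 (adjusted p = 0.00953). In each of these 3 genes the E18 embryos lay closer to each other than to the E20 embryo. The same held for PECAM1, CLDN5 and FLI1, which did not pass, so it does not set the called genes apart.

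The 3 called genes of 10 stand beside 11.4% of all genes tested that were called in either direction, with 2.64% called higher and 8.75% lower. The median difference over all genes was -0.44, and relative to it TEK differed by 3.56, KDR by 2.17 and EGFL7 by -1.18. The median over the 10 endothelial genes was 1.24. Of those that did not pass, CLDN5 had a difference of 1.73, PECAM1 1.45, FLI1 1.41, ERG 1.07, CDH5 0.74, TIE1 0.60 and CD34 0.55, with adjusted p between 0.103 and 0.784. TIE1 differed more between the E18 embryos (2.14 in embryo 2 and 0.65 in embryo 1) than E20 (1.99) did from embryo 2.

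The stage comparison has 1 E20 embryo, so its spread is that of the E18 pair, shared over genes. Quantile normalization changed the division of all calls, 402 higher and 1332 lower, to 796 higher and 679 lower. It called PECAM1 (1.73), CLDN5 (2.01), FLI1 (1.83) and ERG (1.75) as well and no longer EGFL7 (-1.18, adjusted p = 0.109). Without the mitochondrially encoded genes, the rest rescaled to a common sum, 858 genes of the table were called and TEK alone of the 10 (2.91, adjusted p = 0.000858). KDR was then 1.497 (adjusted p = 0.165) and EGFL7 -1.85 (adjusted p = 0.0553). With medians over regions in place of means, no gene was called. The difference also depended on which part of the E20 embryo entered. With E20 sections 1 to 5 alone, 6 of the 10 were called, TEK (3.89), KDR (2.56), CLDN5 (2.28), PECAM1 (2.20) and FLI1 (2.10) higher and EGFL7 (-1.94) lower. With E20 sections 6 and 7 alone, none was called and 9 of the 10 differences lay below 0. TEK was the exception at 0.39, which did not pass either (adjusted p = 1.00). Markers of other tissues moved with stage as well. Of the marker genes tested, 12 of 17 of yolk sac endoderm were called higher at E20 (median difference 6.50), 5 of 19 of mesenchyme (0.48) and 3 of 7 of trophoblast and decidua (-0.51), whereas 9 of 10 of the epiblast were called lower (-3.17). Primitive blood had 1 of 17 called higher and leukocytes 0 of 12. The part of these tissues in the stage differences of the endothelial genes was not tested.

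Between the sections of the E20 embryo, 5 of the 10 genes differed beyond the spread of sectors inside a section. They were KDR (F = 12.3, adjusted p = 1.94e-05), PECAM1 (11.7, 2.85e-05), TEK (4.81, 0.0121), FLI1 (4.68, 0.0138) and CDH5 (4.02, 0.0281), by limma's moderated F test. Of all genes, 18.5% were called. Regions of an embryo share that embryo, so this p and all those over regions that follow are too small as statements on embryos.

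The median of KDR was 57.4, 71.6, 117, 82.3 and 134 TPM in E20 sections 1 to 5, and 4.75 and 5.96 TPM in sections 6 and 7. For PECAM1 the medians were 18.4, 58.9, 16.03, 34.01 and 47.3 TPM in sections 1 to 5, and 1.39 and 1.80 TPM in sections 6 and 7. FLI1 had 12.7, 17.4, 15.4, 14.1 and 10.01 TPM in sections 1 to 5, and 0 in both later sections. The step between sections 5 and 6 was common to all 3 genes, and sections 1 to 5 showed no shared order. Of the yolk sac endoderm markers 15 of 17 differed between the E20 sections, of the epiblast markers 9 of 10 and of the mesenchyme markers 2 of 19, and their part in the step was not tested. With sections 1 to 5 alone, an alternative added after the data had been seen, 0 of the 10 genes and 10 genes of the whole table were called.

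**Figure D2:**
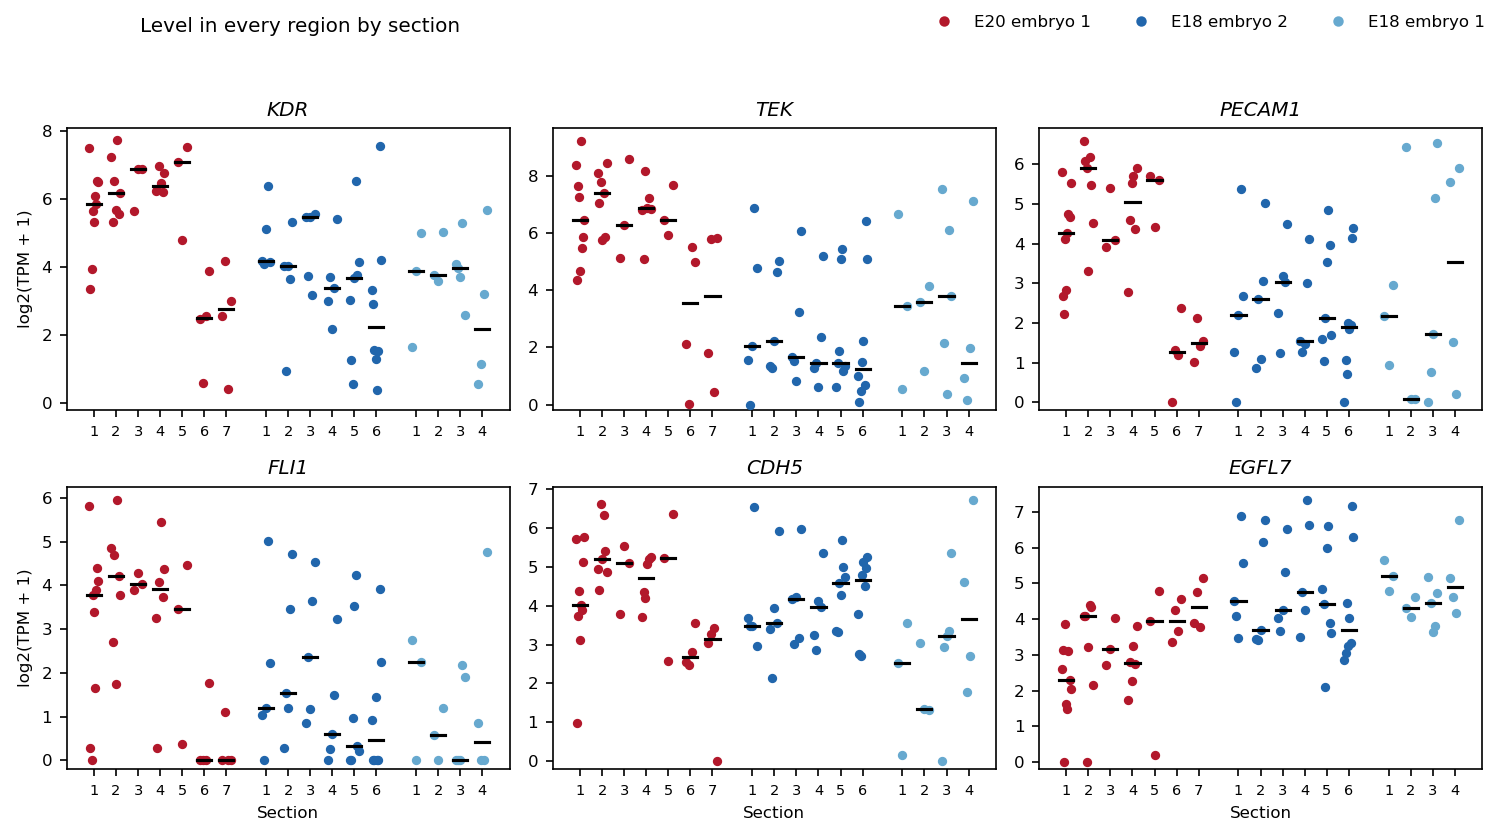
Level of 6 endothelial genes in every region (points) by section, as log2(TPM + 1), with the section median as a bar. E20 embryo 1 is on the left, E18 embryo 2 in the middle and E18 embryo 1 on the right of each panel. KDR, PECAM1 and FLI1 step down between E20 sections 5 and 6, and EGFL7 does not.

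EGFL7 did not show that step. Its section medians were 3.94, 16.1, 7.89, 5.83 and 14.4 TPM in E20 sections 1 to 5, and 14.9 and 19.96 TPM in sections 6 and 7, and the sections did not differ by the test (adjusted p = 0.278). TIE1, CD34, CLDN5 and ERG did not pass either, with adjusted p between 0.0899 and 0.32. In E18 no member differed between sections. By limma, 0 genes of the table (0%) were called in E18 embryo 2 and 0 (0%) in E18 embryo 1, while 345 and 675 genes had an unadjusted p under 0.05 and no endothelial gene was among either.

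As a trend along the section number, over the whole run of sections of an embryo, KDR fell by 2.11 ± 0.48 log2 units, TEK by 1.81 ± 0.62 and FLI1 by 1.72 ± 0.49. Their limma adjusted p values were 0.00257, 0.0452 and 0.0149, and 10.7% of all genes were called, 8.81% higher and 1.89% lower. The slope of KDR was -3.06 in E20, -1.71 in E18 embryo 2 and -0.89 in E18 embryo 1. TEK had -3.29 in E20, -0.86 in E18 embryo 2 and -0.61 in E18 embryo 1, and FLI1 had -2.97, -1.19 and -0.11 in the same order. The signs were shared, but without the E20 embryo, or with its sections 1 to 5 and 6 to 7 as separate blocks, none of the 10 was called. Quantile normalization kept KDR and FLI1 and moved the division of all calls, 1341 higher and 287 lower, to 852 higher and 500 lower. CDH5 ran in different directions, with a slope of -1.76 in E20, 0.40 in E18 embryo 2 and 2.05 in E18 embryo 1, and these slopes differed between embryos (moderated F test, adjusted p = 0.0279).

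Along the sector number, all 10 endothelial genes rose from the first to the last sector of a section. The slopes were 2.40 ± 0.50 log2 units for CLDN5, 2.28 ± 0.47 for CD34, 2.09 ± 0.57 for TEK, 1.79 ± 0.42 for FLI1 and 1.61 ± 0.32 for TIE1. They were 1.57 ± 0.45 for PECAM1, 1.46 ± 0.37 for ERG, 1.36 ± 0.40 for KDR, 1.34 ± 0.35 for CDH5 and 1.25 ± 0.36 for EGFL7. The limma adjusted p values ran between 0.00296 for TIE1 and 0.0418 for KDR. Of all genes tested 3.24% were called, 2.48% higher and 0.762% lower, and the median slope over all genes was 0.07 against 1.59 over the endothelial genes.

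TIE1 and ERG were higher in the last than in the first sector of 16 of 17 sections, CD34 in 15 and TEK in 14. KDR, CDH5, PECAM1, CLDN5 and FLI1 were higher there in 13 of 17 and EGFL7 in 12. All 30 slopes, of 10 genes in 3 embryos, were above 0. They were largest in E18 embryo 2 for 8 of the 10 genes; KDR was steepest in E18 embryo 1 (2.19) and CLDN5 in the E20 embryo (3.01). No member's slopes differed between embryos by the test (adjusted p between 0.248 and 0.802).

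**Figure D3:**
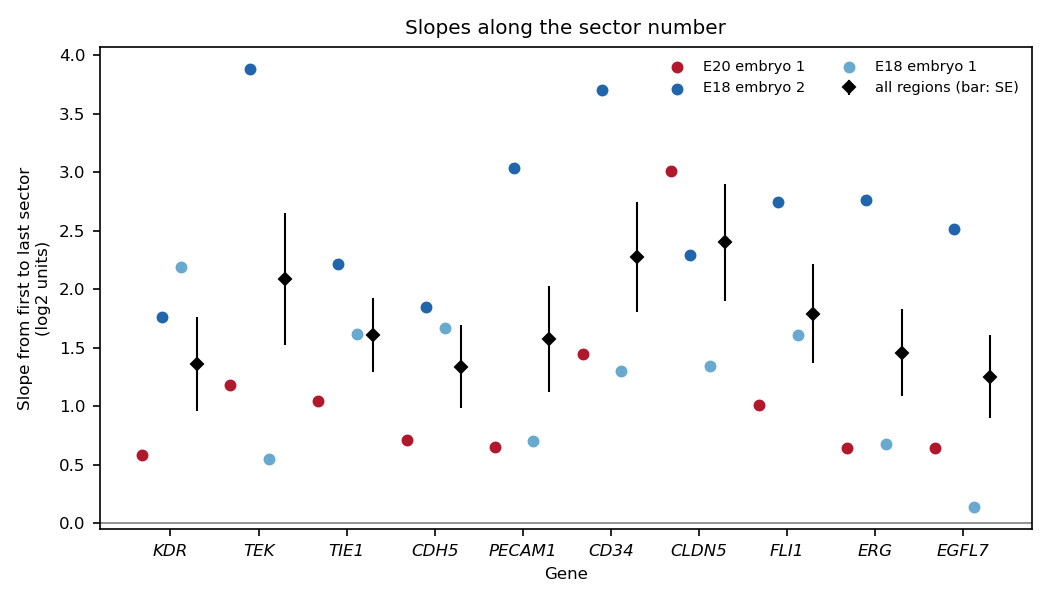
Slope of each endothelial gene from the first to the last sector of a section, in log2 units, for each embryo (coloured points) and for all regions with section as a block (black diamonds, bars are SE). All points lie above the zero line, and those of E18 embryo 2 are the highest for 8 of the 10 genes.

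The sector trend rested on E18 embryo 2: without it, 0 genes of the table were called, and the slopes of the 10 genes were 0.47 to 2.47. At a pseudocount of 0.1, 7 of the 10 were called, and KDR, CDH5 and EGFL7 were not (adjusted p = 0.0787, 0.0961 and 0.0959). Quantile normalization kept all 10 and moved the division of all calls, 377 higher and 116 lower, to 405 higher and 319 lower. Genes of the extraembryonic mesenchyme, the loose tissue of yolk sac, chorion and connecting stalk, moved along the sectors too. Of 19 such genes (collagens, LUM, DCN, HAND1, HAND2, FOXF1 and others), 8 were called higher along the sector number and 0 lower, with a median slope of 1.93. Other tissues moved as well, with 4 of 10 epiblast markers called lower (median slope -1.04) and 2 of 8 amnion markers higher (1.11). The part of epiblast and amnion in the sector trend of the endothelial genes was not tested. With the mesenchyme score as a covariate, an alternative added after the data had been seen, none of the 10 endothelial genes was called, and 1 gene of the whole table was. CLDN5 then had a slope of 2.22 (adjusted p = 0.0955), TIE1 1.26 (0.142) and TEK 0.23 (0.835).

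The relation to mesenchyme was next taken directly. A score per region, the mean of the 19 genes after scaling within each embryo, was set against every gene with embryo as a block. All 10 endothelial genes rose with it, beside 29% of all genes called, 15.2% higher and 13.8% lower. TEK rose by 1.88 ± 0.12 log2 units per SD of the score (adjusted p = 1.05e-24), CD34 by 1.197 ± 0.15, FLI1 by 1.04 ± 0.15, PECAM1 by 0.97 ± 0.16 and KDR by 0.94 ± 0.16. ERG, EGFL7, CLDN5, TIE1 and CDH5 had smaller slopes, 0.85, 0.65, 0.64, 0.57 and 0.50, with adjusted p up to 0.00932. The median slope over the 10 was 0.89, and over all genes it was -0.01. Without E18 embryo 2, 5 of the 10 were called, TEK (1.90), CD34 (0.83), KDR and PECAM1 (0.79 each) and FLI1 (0.78), beside 1165 genes of the table called higher and 1058 lower. With section as a block, 9 of the 10 were called, with a median slope of 0.76, and CLDN5 was not (0.50, adjusted p = 0.0565).

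In E18 embryo 2 the highest endothelial and the highest mesenchyme levels of a section mostly fell in the same sector. The sector with the highest level in each of its 6 sections was the one with the highest mesenchyme level in 6 of 6 sections for KDR, TEK, TIE1 and FLI1, in 5 of 6 for CDH5, PECAM1, CD34, ERG and EGFL7, and in 4 of 6 for CLDN5. It held in 4 of 7 sections for TEK, 3 for ERG and EGFL7, 2 for TIE1, PECAM1, CD34 and CLDN5, and 1 for KDR, CDH5 and FLI1 in E20. In E18 embryo 1 it held in 3 of 4 sections for TEK and EGFL7, 2 for CDH5, PECAM1, CD34 and FLI1, and 1 for KDR, TIE1, CLDN5 and ERG. How many matches chance would give was not computed, so counts of 1 or 2 are not read as a relation. The clearest match was section 1 sector 4 of E18 embryo 2, with a mean mesenchyme level of 7.48, the highest of all 86 regions. It held 116 TPM of TEK, 91.7 TPM of CDH5, 99.8 TPM of CD34, 115 TPM of CLDN5 and 118 TPM of EGFL7. The next sector on, sector 5 of that section, had a mesenchyme level of 5.34 and 26.3 TPM of TEK, 6.83 TPM of CDH5, 11.1 TPM of CD34, 0 of CLDN5 and 46.1 TPM of EGFL7. In E18 embryo 1, section 4 sector 4 was likewise high in the whole set, with 137 TPM of TEK, 104 TPM of CDH5, 59.3 TPM of PECAM1 and 109 TPM of EGFL7 at a mesenchyme level of 6.51.

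Not every mesenchyme-rich region carried the set. In E18 embryo 1, section 3 sector 1 had a mesenchyme level of 6.48 and 185 TPM of TEK, but CDH5, PECAM1, TIE1, CLDN5, FLI1 and ERG were all listed at 0. Section 1 sector 1 of that embryo had a level of 6.59 and 101 TPM of TEK, with 5.75 TPM of FLI1, 4.76 TPM of CDH5, 3.55 TPM of PECAM1 and 0 of TIE1, CD34, CLDN5 and ERG. In E20, section 7 sector 4 had a level of 5.98 and 55.7 TPM of TEK, with 1.93 TPM of PECAM1 and 0 of CDH5, TIE1, CLDN5 and FLI1.

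**Figure D4:**
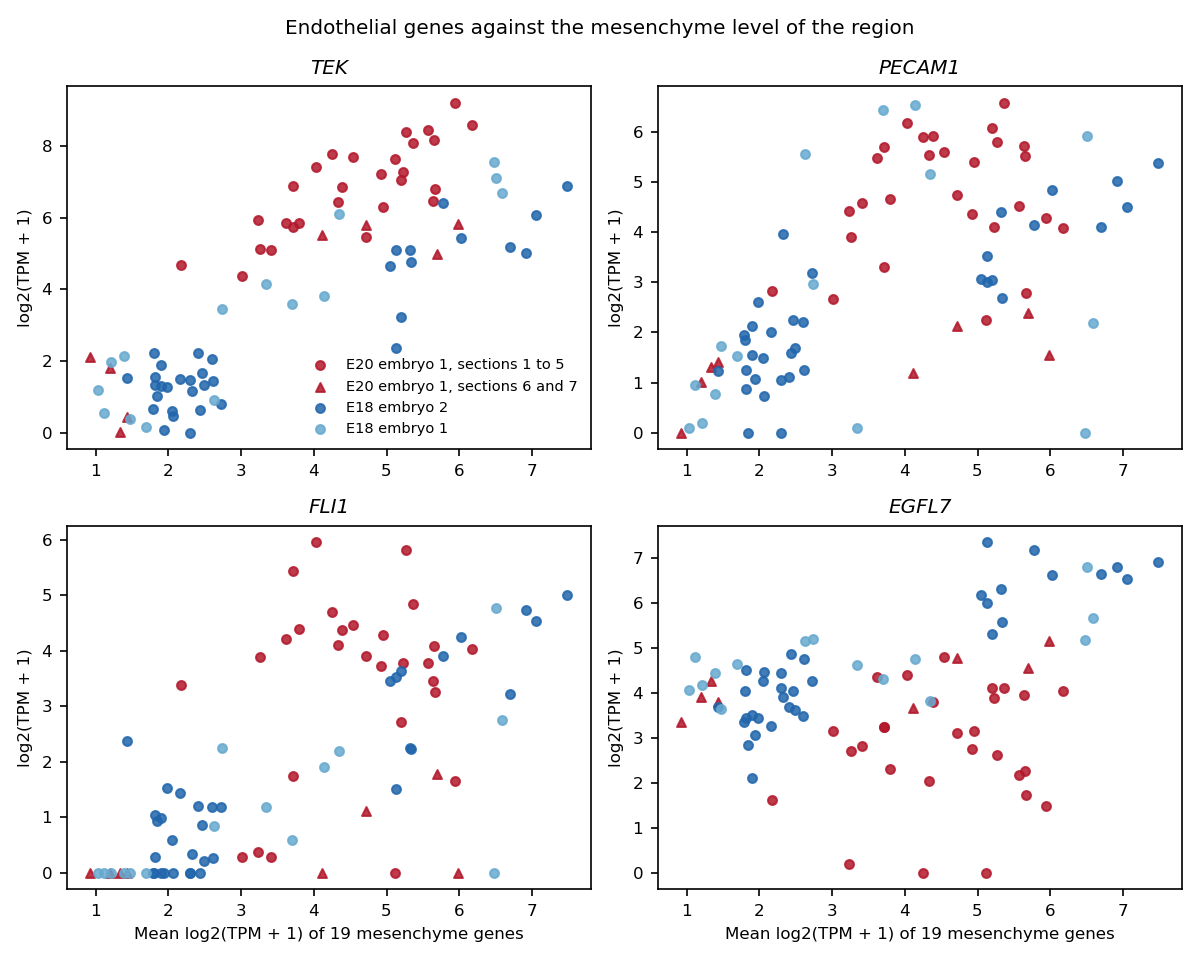
Level of TEK, PECAM1, FLI1 and EGFL7 in each region, as log2(TPM + 1), against the mean log2(TPM + 1) of 19 mesenchyme genes in that region. Red circles are E20 sections 1 to 5, red triangles E20 sections 6 and 7, dark blue circles E18 embryo 2 and light blue circles E18 embryo 1. TEK climbs with the mesenchyme level in all 3 embryos, while in E20 sections 1 to 5 PECAM1, FLI1 and EGFL7 are spread over their range at any mesenchyme level.

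Inside E20 sections 1 to 5, TEK was the member whose level followed the mesenchyme level most closely. Across those 28 regions, the Spearman correlation between TEK and the mesenchyme level was 0.76, and between TEK and the yolk sac endoderm level it was -0.79. For KDR these were 0.40 and -0.27. For the other 8 genes the correlation with mesenchyme lay between -0.08 for CLDN5 and 0.18 for CD34, and that with endoderm lay between -0.29 for PECAM1 and 0.10 for CLDN5. In E18 embryo 2, across 35 regions, the Spearman correlation with mesenchyme was 0.45 for CDH5 and 0.53 for CLDN5, and between 0.63 and 0.81 for the other 8, with EGFL7 the highest. These are descriptions over regions that share an embryo and, within a section, a slice.

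**Figure D5:**
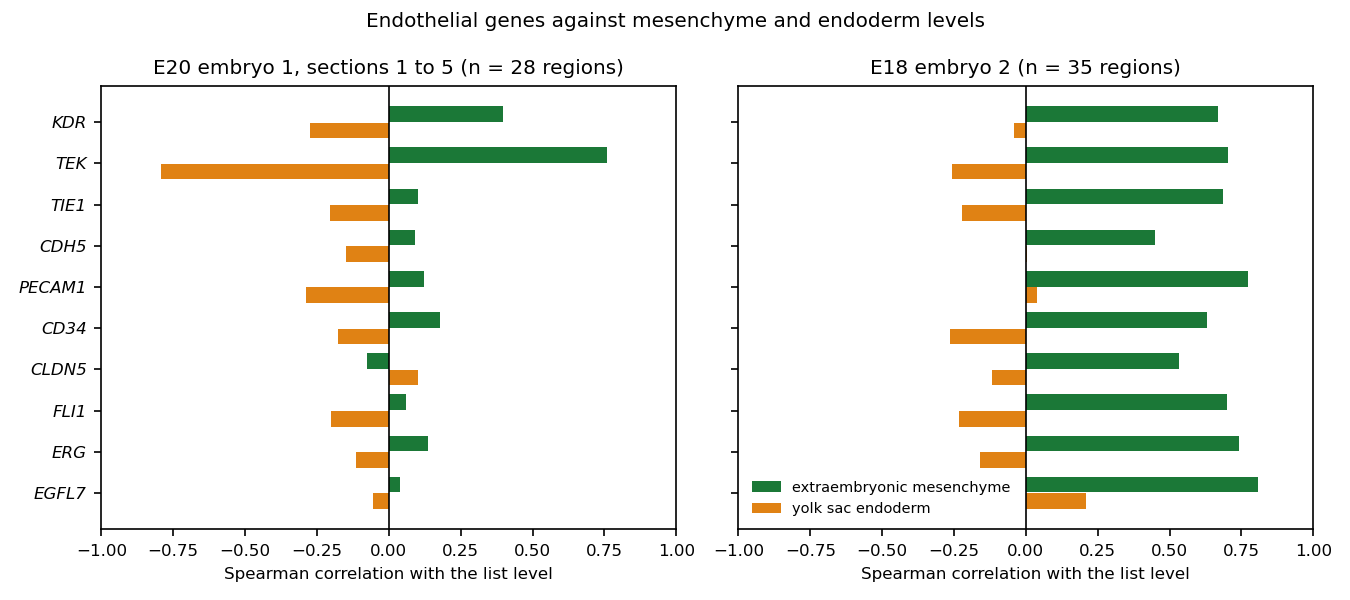
Spearman correlation of each endothelial gene with the mean level of the mesenchyme genes (green) and of the yolk sac endoderm genes (orange), over the 28 regions of E20 sections 1 to 5 (left) and the 35 regions of E18 embryo 2 (right). On the left TEK stands at 0.76 and -0.79, KDR at 0.40 with mesenchyme, and the other 8 genes between -0.08 and 0.18 with mesenchyme, while the orange bars of the 9 genes other than TEK lie between -0.29 and 0.10; on the right the green bars of all 10 genes are at 0.45 or more.

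The slopes on the mesenchyme score differed between embryos for EGFL7 and ERG. EGFL7 had a slope of 0.07 in E20, 1.28 in E18 embryo 2 and 0.54 in E18 embryo 1 (moderated F test, adjusted p = 0.00272). ERG had 0.57 in E20, 1.39 in E18 embryo 2 and 0.24 in E18 embryo 1 (adjusted p = 0.0355). For TEK the slopes were 1.70 in E20, 1.85 in E18 embryo 2 and 2.39 in E18 embryo 1, and their difference did not pass the test (adjusted p = 0.584).

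With the score of pluripotent epiblast genes (NANOG, SOX2, DPPA5 and 7 others), all 10 endothelial genes fell. Of all genes tested 39.8% were called, 26.2% higher and 13.6% lower, and the median slope was -0.91 over the 10 genes and 0.05 over all genes. TEK fell by 1.65 ± 0.15 log2 units per SD (adjusted p = 7.11e-16), FLI1 by 1.15 ± 0.14, CD34 by 1.12 ± 0.16 and PECAM1 by 1.10 ± 0.16. EGFL7 had the smallest slope, -0.35 ± 0.13 (adjusted p = 0.0279). Its slopes differed between embryos, with 0.50 in E20, -1.23 in E18 embryo 2 and -0.36 in E18 embryo 1 (adjusted p = 1.52e-07). EGFL7 thus went up with the epiblast score over all E20 regions and down with it in both E18 embryos. In E20 the epiblast level lay between 0.50 and 2.05 in sections 1 to 5, and between 2.08 and 5.92 in sections 6 and 7. The medians of EGFL7 in these blocks were 6.77 and 16.01 TPM, and its slope inside each block was not tested. Those of ERG differed as well, with -0.68 in E20, -1.31 in E18 embryo 2 and -0.07 in E18 embryo 1 (adjusted p = 0.0129). Without E18 embryo 2, 6 of the 10 were called, the slope of EGFL7 was 0.26, and 3627 genes of the table were called higher and 1276 lower. With section as a block, 8 of the 10 were called lower, EGFL7 among them. CDH5 (-0.31, adjusted p = 0.191) and CLDN5 (-0.59, adjusted p = 0.0754) were not called. EGFL7 was not called at a pseudocount of 0.1 or without E18 embryo 1, nor was CDH5 without E20. Quantile normalization kept all 10 and moved the division of all calls, 3979 higher and 2073 lower, to 3450 higher and 2844 lower.

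With the yolk sac endoderm score, 2 of the 10 passed, beside 11.7% of all genes called, 5.37% higher and 6.33% lower. PECAM1 rose by 0.70 ± 0.18 log2 units per SD (adjusted p = 0.0049) and KDR by 0.55 ± 0.18 (adjusted p = 0.0316). KDR had a slope of 1.27 in E20, 0.13 in E18 embryo 2 and -0.26 in E18 embryo 1, which differed between embryos (adjusted p = 0.0157). CLDN5, with 1.00 in E20, -0.43 in E18 embryo 2 and 0.50 in E18 embryo 1, differed too (adjusted p = 0.0434). Without the E20 embryo, or with section as a block, none of the 10 was called.

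With the primitive blood score, made of 17 genes such as the embryonic globin HBZ, GATA1 and RUNX1, limma called 0 of the 10 genes, at an adjusted p of 0.811 or more for each except PECAM1 at 0.756. No member had an unadjusted p under 0.05. Of all genes tested 0.21% were called (0.21% higher, 32 genes, and 0% lower), and 172 with quantile normalization, 95 higher and 77 lower. Of the 17 blood genes, each set against the score without itself, 6 were called. For the mesenchyme score this was 18 of 19, for endoderm 16 of 17 and for epiblast 10 of 10. Most blood genes thus did not pass with their own score, so the 0 of 10 says little on the relation to blood. HBZ itself had a median of 46.8 TPM in E20 sections 1 to 5 and was at a median of 0 in E20 sections 6 and 7 and in both E18 embryos. It was the 1 blood gene of 17 called higher at E20, and the median stage difference over the list was -0.04.

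CDH5 was also found in regions of E18 embryo 2 that were low in mesenchyme genes and in TEK, FLI1 and ERG. In section 6, sectors 4, 5 and 6 held 26.8, 33.95 and 21.7 TPM of CDH5, and section 5 sectors 6 and 7 held 30.6 and 25.5 TPM. The mean level of 10 nascent mesoderm genes (TBXT, EOMES, MIXL1, MESP1 and others) was between 5.46 and 6.88 in these 5 regions, and their mesenchyme level was between 1.78 and 2.49. TEK was between 0.587 and 3.64 TPM, FLI1 at 1.71 TPM or less and ERG at 0.360 TPM or less in the same regions. Section 6 sectors 4, 5 and 6 had 9, 6 and 4 of the 10 genes at 1 TPM or more, and section 5 sectors 6 and 7 had 8 each. These 5 regions were picked after their values had been seen and are given as single regions. Across the 35 regions, the Spearman correlation between CDH5 and the nascent mesoderm level was 0.09, and for the other 9 genes it lay between -0.56 for FLI1 and -0.16 for CLDN5.

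PECAM1 was also high in 3 regions of E18 embryo 1 that were picked after their values had been seen. In 2 of them TIE1 and CLDN5 were at 0.102 TPM or less. PECAM1 was not high in these 3 alone, with 59.3 TPM in section 4 sector 4 and 34.6 TPM in another region of section 3. Section 2 sector 1 held 85.7 TPM of PECAM1, with 7.27 TPM of CDH5, 0.102 TPM of TIE1 and 0 of CLDN5 and ERG. Section 4 sector 1 held 46.2 TPM, with 0.881 TPM of TEK and 0 of TIE1 and CLDN5. CDH5 was at 1 TPM or more in every region of that section, with a section median of 14.5 TPM. Section 3 sector 5 held the most, 92.0 TPM, together with 39.8 TPM of CDH5 and 23.2 TPM of CD34, and there all 10 genes were at 1 TPM or more. That region also had the highest leukocyte level of the 86, a mean of 3.799 over 13 marker genes against medians of 0.885 in its embryo and 0.963 over all regions. TYROBP, the adaptor of myeloid receptors, was at 175 TPM, C1QA at 31.9 TPM and CD74 at 49.6 TPM, whereas the T cell gene CD3E was listed at 0. These 4 were named after their values had been seen. TYROBP, C1QA, CD74, C1QB and CD68 were higher there than in any other region. PTPRC, FCER1G, LYZ, CD14, CSF1R, AIF1 and LAPTM5 were each higher in some other region. PTPRC was at 4.32 TPM against up to 14.9 TPM elsewhere, and LAPTM5 at 3.86 TPM against up to 48.5 TPM. The mean level of the trophoblast and decidua markers was 4.35 in section 2 sector 1, 4.11 in section 4 sector 1 and 5.23 in section 3 sector 5, against a median of 2.17 in that embryo and 1.69 over all regions, and 5.23 was the highest of the 86. Section 1 sector 1 of that embryo had a level of 4.72 with 3.55 TPM of PECAM1, and section 4 sector 4 had 3.26 with 59.3 TPM. Amnion markers were at 4.76 in section 2 sector 1, the highest of that embryo. Yolk sac endoderm markers were at 5.27 in section 3 sector 5, the highest of E18. Epiblast markers were at 5.82, 5.39 and 4.99 in the 3 regions in the same order, against a median of 5.39 in that embryo. The part of these tissues and of leukocytes in the PECAM1 and CD34 levels of these regions was not tested. Without section 3 sector 5 the stage, mesenchyme and endoderm calls of the 10 genes were the same in number.

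Among themselves the 10 genes moved together most in E18 embryo 2. The median Spearman correlation over the 45 pairs was 0.55 in E20, 0.61 in E18 embryo 2 and 0.40 in E18 embryo 1, and it was above 0 for 40, 45 and 41 of the pairs in that order. The closest pairs were KDR and FLI1 in E20 (0.86), TEK and TIE1 in E18 embryo 2 (0.85), and CDH5 and PECAM1 in E18 embryo 1 (0.84). In E20 EGFL7 had the lowest mean correlation, 0.04 with the other 9, beside 0.56 in E18 embryo 2 and 0.26 in E18 embryo 1. Inside E20 sections 1 to 5 the picture differed: the mean correlation of EGFL7 was 0.39, and the lowest was that of TEK at 0.20. Over all 36 E20 regions the pairs with EGFL7 lay between -0.20 with TEK and 0.33 with CD34.

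The genes most like the mean of the set, by the mean of 3 within-embryo Spearman correlations among 8822 candidates, were led by ARHGDIB (0.79) and ESAM (0.76), an endothelial adhesion molecule. SMCO3, LUM, PALM2AKAP2, DAB2, CSGALNACT1, CPED1, MEIS1 and the VEGF receptor FLT1 (0.72) followed. Single members had different neighbours. PECAM1 was most like ESAM (0.85), ARHGDIB (0.80) and GNG11 (0.77), and ESAM also headed CDH5 (0.66). TEK was most like TGFBI (0.83), SOX6 (0.81), LRP11 (0.79), COL1A2 (0.79) and LUM (0.79), of which COL1A2 and LUM are genes of the mesenchyme list. KDR was most like FOXF1 (0.67), also of that list, CLDN5 like RAMP2 (0.56), a partner of the adrenomedullin receptor, and EGFL7 like MAGED2 (0.65).

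The rest of the vascular pathway was followed in 4 lists. Of all genes tested, 2.64% were called higher and 8.75% lower at E20, and 2.48% rose along the sectors. With mesenchyme 15.2% of all genes rose and 13.8% fell. The lower calls at E20 given below, 2 of 16 receptors and 2 of 17 transcription factors, were near the share of all genes. Of the 13 ligands tested, 0 were called between stages, 3 rose along the sectors while with mesenchyme 7 rose and 1 fell. ANGPT1, which activates TEK, had a sector slope of 1.56 ± 0.42 and a mesenchyme slope of 1.14 ± 0.12. EFNB2, an ephrin that binds EPHB4, had 1.53 ± 0.44 and 1.15 ± 0.11, and DLL4, a Notch ligand, had 1.45 ± 0.34 and 0.63 ± 0.12. ANGPT1 had medians of 10.1 TPM in E20 sections 1 to 5, 1.32 TPM in E20 sections 6 and 7, 1.55 TPM in E18 embryo 2 and 0.64 TPM in E18 embryo 1. VEGFA, the main ligand of KDR, had medians of 36.7, 27.6, 43.0 and 49.3 TPM in the same groups.

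Of the 16 receptors and coreceptors, 2 were called higher and 2 lower at E20, 7 rose along the sectors and 11 with mesenchyme. RAMP2 (2.64 ± 0.45) and NRP2 (1.78 ± 0.45), a coreceptor of VEGFs and semaphorins, were higher at E20, and APLNR (-2.35 ± 0.45) and CXCR4 (-2.52 ± 0.54) were lower. NRP1 had a sector slope of 1.87 ± 0.40 and S1PR1 one of 1.62 ± 0.35. FLT1, which binds VEGF with high affinity, was steadier than KDR, with medians of 19.5 TPM in E20 sections 1 to 5, 13.96 TPM in E20 sections 6 and 7, 18.3 TPM in E18 embryo 2 and 10.3 TPM in E18 embryo 1.

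Of the 17 transcription factors tested, 0 were called higher and 2 lower at E20, GATA2 (-1.95 ± 0.67) and SOX17 (-2.04 ± 0.70), while 6 rose along the sectors. The sector slope was 2.67 ± 0.60 for HEY1, a Notch target, and 2.06 ± 0.42 for SOX7. With mesenchyme 11 rose, HEY1 (1.47 ± 0.18), NR2F2 (1.27 ± 0.12) and SOX7 (1.17 ± 0.13) most, and 2 fell. ETV2, the ETS factor that starts the endothelial programme in the mouse, was low throughout, with medians of 0 in E20 sections 1 to 5, 1.69 TPM in E20 sections 6 and 7, 2.87 TPM in E18 embryo 2 and 1.53 TPM in E18 embryo 1.

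Of 25 other endothelial genes, 4 were called higher at E20 and 0 lower, and 6 rose along the sectors. AQP1, a water channel, was higher by 5.75 ± 0.51, STAB2 by 3.01 ± 0.79 and LYVE1 by 2.76 ± 0.80, both scavenger and hyaluronan receptors of sinusoidal and lymphatic endothelium, and GNG11 by 2.45 ± 0.46. LYVE1 had a median of 25.7 TPM in E20 sections 1 to 5, with 0 in E20 sections 6 and 7, 0.37 TPM in E18 embryo 2 and 0 in E18 embryo 1. VWF and EMCN, genes of more mature vessels, had medians of 2.63 and 0 TPM in E20 sections 1 to 5, and of 3.84 and 0.96 TPM in E18 embryo 2. The median stage difference was -0.50 over the ligands, -0.28 over the receptors, -0.18 over the transcription factors and 0.28 over the other endothelial genes, beside -0.44 over all genes.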

How the data were processed

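Each region is 1 library. Per the labels and the submitters' processing notes, reads were handled with fastp, HISAT2 and StringTie; versions, genome build and gene models: not given in the sources used here, hence no coordinates. The deposited table holds TPM values as the authors computed them, which keep no counts, so depth is unknown and no counting interval is given. Every column was tied to 1 labelled region (0 unmatched). Genes reaching 1 TPM in 10 or more regions (15216 of 17023) were tested as log2(TPM + 1), with a pseudocount of 1, using limma 3.58.1 with trended empirical Bayes moderation (R 4.3.3) and Benjamini-Hochberg adjustment at 0.05; fold changes on this scale understate those of low genes. Embryo was the replicate for stage (1 residual degree of freedom, infinite prior degrees of freedom). Section F tests ran within an embryo, trends and scores over regions with embryo or section as a block, and embryo slopes were compared by moderated F. A mesenchyme, endoderm, epiblast or blood gene was tested against its score without itself. The fits were tested on simulated data. Alternatives were a pseudocount of 0.1, no filter, quantile normalization, removal of 13 mitochondrially encoded genes with the rest rescaled to a common sum, covariates, other blocks and leaving out embryos. All 10 members are named; others are partners, or the called genes with the largest effects of a list. The members and lists were chosen with earlier results of these data known. The labels do not say whether embryos shared litters.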

Additional observations from a re-analysis of the deposited data

Results flagged for a closer look

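Slopes that differed between the 3 embryos by a moderated F test over regions were found for 5 of the 10 endothelial genes. Of all 15216 genes tested, such a difference passed for 1537 along the section number, 308 with the mesenchyme score, 2170 with the yolk sac endoderm score and 2331 with the epiblast score. Along the section number this was CDH5 (adjusted p = 0.0279). With the mesenchyme score it was ERG (adjusted p = 0.0355) and EGFL7 (adjusted p = 0.00272). With the yolk sac endoderm score it was KDR (adjusted p = 0.0157) and CLDN5 (adjusted p = 0.0434). With the epiblast score it was ERG (adjusted p = 0.0129) and EGFL7 (adjusted p = 1.52e-07). The E20 embryo and the E18 embryos differ in which tissues were sampled, and 1 embryo stands for E20, so stage and embryo cannot be told apart in these comparisons.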

How the results depend on the processing

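Stage counts: 1734 genes and 3 members were called; members were 6 with quantile normalization, genes 858 and members 1 (TEK) without mitochondrially encoded genes and rescaled to a common sum, 0 and 0 with medians over regions, 2970 and 6 with E20 sections 1 to 5, and 6 and 0 with E20 sections 6 and 7. With sections 6 and 7 the differences were KDR -1.15, TIE1 -0.35, CDH5 -0.84, PECAM1 -1.17, CD34 -0.83, CLDN5 -0.17, FLI1 -0.997 and ERG -0.37, and TIE1 was -0.15 without E18 embryo 1 and 1.34 without E18 embryo 2. E20 sections 1 to 5 alone gave 10 genes and 0 members between sections, against 2820 and 5.

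The section trend called 1628 genes and 3 members, with 9 and 0 without E20 (CDH5 0.91), 502 and 1 (KDR) with the number of detected genes as a covariate, and 6 and 0 with E20 in separate blocks (CDH5 0.83); leaving out an embryo gave 9 to 2411 genes and 0 to 4 members, with CDH5 between -0.68 and 0.91. The sector trend called 493 genes and 10 members, with 253 and 7 members (not KDR, CDH5 or EGFL7) at a pseudocount of 0.1 and 1 gene and 0 members with the mesenchyme covariate; leaving out an embryo gave 0 (without E18 embryo 2) to 1129 genes (without E18 embryo 1) and 0 to 9 members.

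The mesenchyme score called 4415 genes and 10 members; leaving out an embryo gave 2223 (without E18 embryo 2) to 4414 genes and 5 to 10 members. Without E18 embryo 2 the epiblast score called 6 members, and EGFL7 lay between -0.98 (without E20) and 0.26 (without E18 embryo 2). The endoderm score called 1780 genes and 2 members, with 4 members after quantile normalization, 1 (PECAM1) with detected genes as a covariate, and 77 genes and 0 members with section as a block (KDR -0.0152, CLDN5 -0.0415). Leaving out an embryo gave 15 (without E20, CLDN5 -0.16) to 3262 genes (without E18 embryo 2) and 0 to 6 members, with CLDN5 at most 0.86. The blood score called 32 genes, with 172 after quantile normalization and 4 (without E20) to 37 (without E18 embryo 2) when an embryo was left out, and 0 members in each.

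No paired analysis was possible because replicate numbers only name regions in accession order. Depth is unknown from TPM, so low genes such as ERG and CLDN5 cannot be given a detection limit.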
